A study of Rattus norvegicus with 13 samples.

Results

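The genes described here encode the spliceosome and the factors that direct it, measured in the axons and neurons of cultured rat cortex. They were chosen by symbol: every gene with a probe set of its own whose symbol begins with Srsf, Sf3a, Sf3b, Snrp, Prpf, U2af or Lsm and goes on with a number or a subunit letter, together with *Ddx5*, *Ddx39b*, *Tra2a*, *Tra2b*, *Srrm1* and *Srrm2*. This gave 61 genes, read by 97 probe sets, of 14217 genes read by 20826 probe sets with 1 gene symbol. Of the 61 genes, 37 had 1 probe set and 24 had several. No measured value entered the choice, and no filter on low values was applied, so all 61 genes are counted throughout. Symbols of 3 further probe sets begin with the same letters and were set aside by name: *Lsmem1* and *Lsmem2* encode unrelated membrane proteins, and *Srsf7-ps4* is a pseudogene. A further 8 probe sets carry a splicing gene together with another symbol and were not counted.

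The spliceosome removes introns from pre-mRNA in the nucleus. It is assembled from small nuclear ribonucleoproteins (snRNPs), each a small nuclear RNA on a ring of Sm or LSm proteins with proteins of its own, and from factors that recognise splice sites and exons. SR proteins, named for their stretches of serine and arginine, bind exons and recruit the machinery. Since axons hold no nucleus, splicing proteins work mainly in the cell body, and their mRNAs are a standard example of transcripts for a nuclear function, although several splicing proteins also act on mRNA in the cytoplasm.

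The arrays were hybridised with RNA from cortical cultures grown for 13 days in a microfluidic device that lets axons grow into a compartment apart from the cell bodies. Regenerating axons (3 arrays) had been cut on day 11 and were collected 2 days later. Neurons (3 arrays) came from the compartment with the cell bodies and were not injured, so this material holds dendrites and nearby axons as well, and any other cells that grow there. Uninjured axons filled 7 arrays. No gene was altered in any group, each array held the pooled material of 3 devices, amplified in 2 rounds. The design text gives 3 culture batches for the uninjured axons, while the labels do not say which cultures the other arrays came from, so p-values measure only the spread between arrays, which may be technical.

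The deposited values are ratios and not levels. The uninjured arrays 1 to 3 and 4 to 6 had each been divided by the median of their own set of 3, and array 7 is exactly 1 for every probe set, so 6 uninjured arrays carry a measurement. The divisor of the neuron and regenerating arrays is not given in the sources used here, and the level of uninjured axons was assumed. Every difference from uninjured axons below rests on that reading. A ratio carries no signal level, so the abundance of a gene cannot be set against that of another gene, and a weak signal cannot be told from no signal. For RNA pooled from whole compartments, fewer cells of a type and less RNA per cell cannot be told apart. Ratios of each gene are given on the linear scale, where 1 is the reference level. Differences are on the log2 scale with the standard error (SE), and the number of arrays limits their precision.

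Promoters of 3 genes are shown first, *Ddx39b* because it had the largest difference between neurons and uninjured axons, and *Srsf3* and *Sf3a2* because they alone of the 61 genes passed the test in the opposite direction. The sequences are from RefSeq on the rat GRCr8 assembly, 300 bases each from 250 before to 50 after the annotated start, written along the gene's strand. Capitals mark matches, on either strand, to the ETS-family core (CCGGAAG), the NRF1 palindrome (GCGCA followed by its own reverse complement), the GC box (GGGCGG), the CCAAT box (CCAAT) and the TATA box (TATAAA). *Ddx39b* lies on the minus strand at chr20:3589602-3589901, *Srsf3* on the plus strand at chr20:7093335-7093634 and *Sf3a2* on the minus strand at chr7:9566156-9566455.
Ddx39b: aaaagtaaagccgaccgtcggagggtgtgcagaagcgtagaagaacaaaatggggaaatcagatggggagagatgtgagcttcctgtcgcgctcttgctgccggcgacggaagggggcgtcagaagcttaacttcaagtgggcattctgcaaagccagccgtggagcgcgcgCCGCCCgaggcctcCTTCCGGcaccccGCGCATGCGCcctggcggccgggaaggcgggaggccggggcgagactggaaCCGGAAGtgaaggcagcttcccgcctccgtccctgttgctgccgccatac
Srsf3: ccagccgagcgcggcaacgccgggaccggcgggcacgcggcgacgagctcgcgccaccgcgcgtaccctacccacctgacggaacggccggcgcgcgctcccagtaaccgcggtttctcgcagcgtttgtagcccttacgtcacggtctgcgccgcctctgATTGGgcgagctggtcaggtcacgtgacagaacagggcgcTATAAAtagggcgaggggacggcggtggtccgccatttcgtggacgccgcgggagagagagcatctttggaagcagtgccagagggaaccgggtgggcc
Sf3a2: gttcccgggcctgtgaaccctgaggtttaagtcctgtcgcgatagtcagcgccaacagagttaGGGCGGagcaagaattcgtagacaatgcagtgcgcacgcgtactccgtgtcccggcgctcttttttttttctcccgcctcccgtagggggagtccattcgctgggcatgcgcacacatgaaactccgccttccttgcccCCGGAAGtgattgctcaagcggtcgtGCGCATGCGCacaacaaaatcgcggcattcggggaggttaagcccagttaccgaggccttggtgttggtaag

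The *Ddx39b* promoter holds the ETS core on both strands, an NRF1 palindrome and a GC box. The *Sf3a2* promoter also holds an ETS core, an NRF1 palindrome and a GC box, while that of *Srsf3* holds a TATA box and a CCAAT box and none of the other 3 motifs. Promoters were at hand for 55 of the 61 genes. The ETS core was in 18 of the 55 (32.7%), against 9.63% of the promoters of 27457 genes. The NRF1 palindrome was in 4 of the 55 (7.27%) against 0.954%, and the GC box in 33 (60%) against 36%. The CCAAT box was in 21 (38.2%) against 39.6%, and the TATA box in 4 (7.27%) against 15.3%. None of the 5 motifs contains another, and the matches marked in the 3 promoters do not overlap. A match is a description of the letters in this window and not of a binding site.

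Most splicing genes were higher in neurons than in uninjured axons. By limma's test, with p-values adjusted by the Benjamini-Hochberg method over all 14217 genes and a threshold of 0.05, 43 of the 61 were higher, 2 were lower and 16 did not pass. Over all genes tested, 36.9% were higher and 23% were lower. The median log2 difference of the 61 genes was 1.54, with quartiles of 0.55 and 2.93, and the median over all genes was 0.22. The 3 neuron arrays lay above all 6 uninjured arrays for 48 of the 61 genes, where 41.8% of all genes did so, and below all 6 for 3 genes, where 30.3% of all genes did so. With every array shifted to the same median over all genes, which takes 0.22 off each difference, 38 were higher and 3 were lower (*Srsf3*, *Sf3a2* and *U2af2*).

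**Figure D1:**
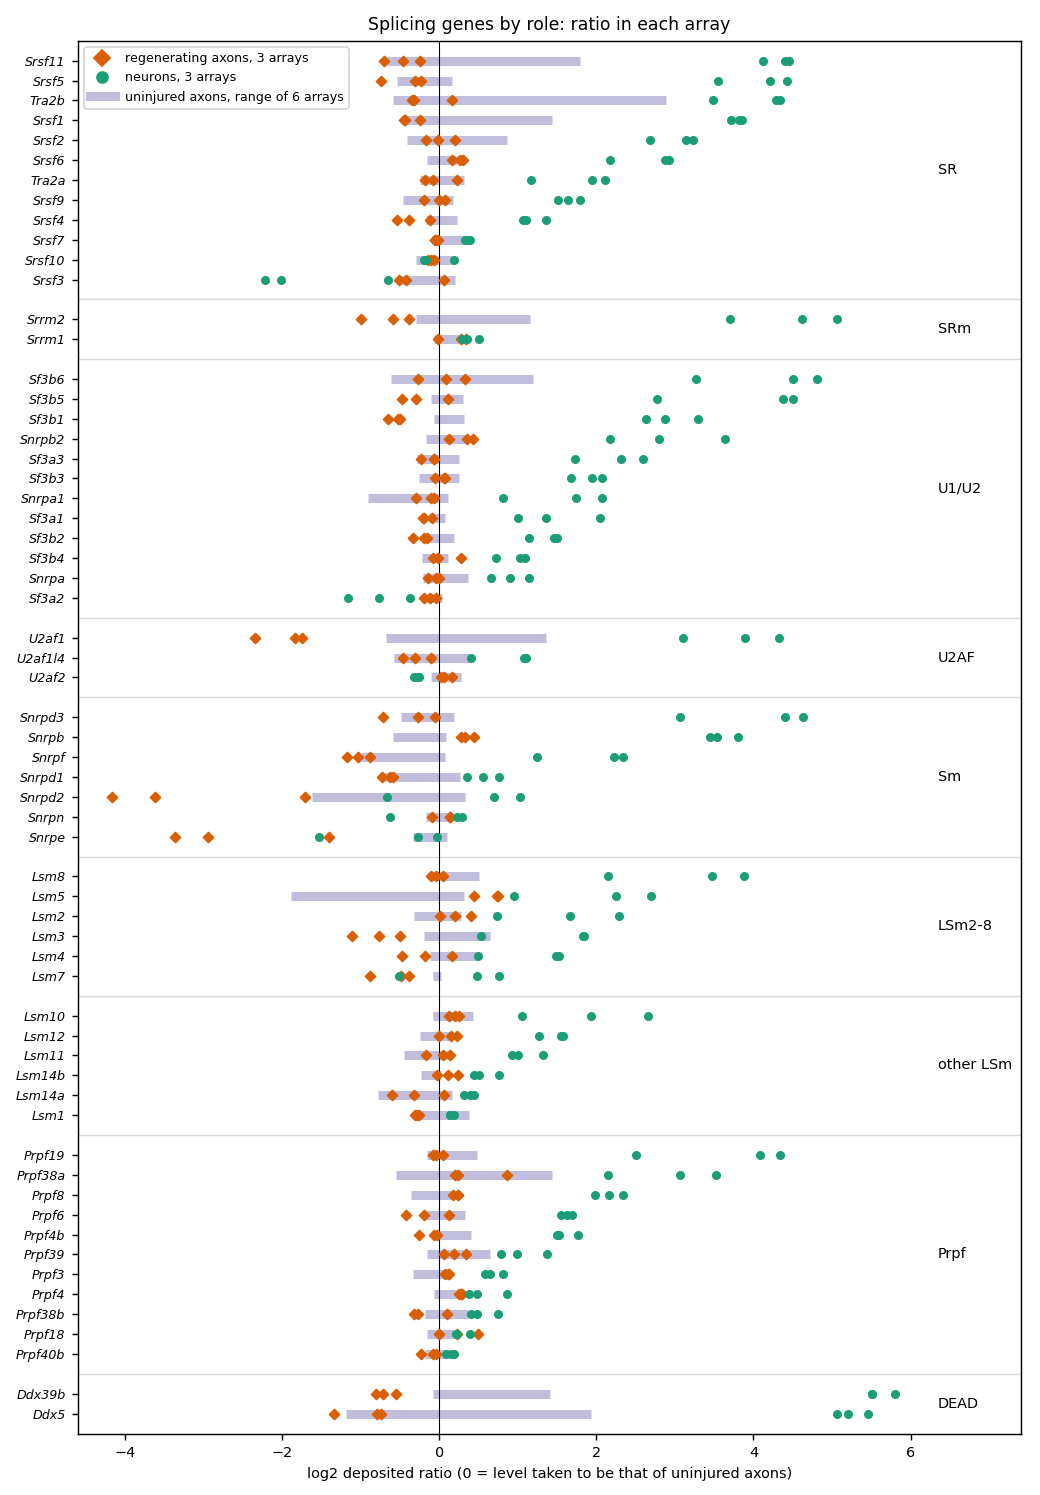
Deposited ratio of each of the 61 splicing genes (log2, x axis) by array, with genes grouped by role; diamonds are the 3 regenerating arrays, circles the 3 neuron arrays, and bars the range of the 6 measured uninjured arrays. Neuron circles lie to the right of the bar for 48 genes and to its left for 3 (*Srsf3*, *Sf3a2* and *U2af2*), whereas regenerating diamonds lie beyond the bar for 11.

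The neuron samples carried markers of more than 1 cell type. Of 15 neuronal markers 14 were higher in neurons than in uninjured axons, with array medians of 2.80 to 3.44 (log2), and of 12 astrocyte markers 10 were higher, with array medians of 3.02 to 3.19. Of 12 microglial markers 11 were lower, with array medians of -1.13 to -0.70, and 29 smell, taste and pheromone receptors, taken as genes largely silent in these cells, had a median of -0.98 with 22 lower. Neuronal markers in the regenerating arrays had medians of -0.99 to -0.30. The part of other cell types in the splicing genes' values was not tested.

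Among the SR proteins, 9 of 12 were higher in neurons, 1 was lower and 2 did not pass, with a median difference of 2.20 (log2). *Srsf11*, an SR-related protein that binds near the 3′ splice site, had ratios of 21.1, 17.3 and 22.0 in neurons, against a lowest of 0.628, a median of 0.991 and a highest of 3.46 in uninjured axons. Its difference was 4.33 ± 0.71 (SE, n = 3 neuron arrays, adjusted p = 0.000852). *Srsf5*, another exon-binding SR protein, had 18.6, 11.7 and 21.4 in neurons, against 0.690, 1 and 1.12 in uninjured axons (lowest, median, highest). All neuron arrays stood far above every uninjured array, and the difference was 4.06 ± 0.34 (adjusted p = 1.96e-05).

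*Tra2b*, which binds purine-rich exon enhancers, had ratios of 19.4, 11.1 and 20.3 in neurons, against a lowest of 0.661, a median of 0.979 and a highest of 7.39 in uninjured axons. The groups did not overlap, but uninjured array 4 alone reached 7.39 while the other 5 stayed near 1, so the difference of 4.03 carried an SE of 1.04 (adjusted p = 0.0085). Without that array the SE was 0.35 and the adjusted p was 4.18e-05. Its paralog *Tra2a* rose by 1.74 (adjusted p = 0.00224).

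*Srsf1*, the founding SR protein, had 14.5, 13.1 and 14.1 in neurons, against 0.737, 0.969 and 2.70 in uninjured axons (lowest, median, highest). The 3 neuron arrays were close to each other and far from every uninjured array, with a difference of 3.79 ± 0.56 (adjusted p = 0.000448). *Srsf2*, an SR protein held in nuclear speckles, had 8.85, 6.44 and 9.34 in neurons, against 0.751, 1.10 and 1.82 in uninjured axons. Its difference was 3.02 ± 0.45 (adjusted p = 0.000513). *Srsf6* (2.65), *Srsf9* (1.65) and *Srsf4* (1.17) also rose, whereas *Srsf7*, which like *Srsf3* serves mRNA export, had a difference of 0.36 and did not pass (adjusted p = 0.118).

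*Srsf3*, the smallest SR protein and an export adaptor, ran the other way. Its ratios were 0.246, 0.635 and 0.215 in neurons, against 0.690, 1 and 1.15 in uninjured axons (lowest, median, highest). The groups did not overlap, and neuron array 2 lay just under the lowest uninjured array. The difference was -1.63 ± 0.52 (adjusted p = 0.0214), and without neuron array 1 it was -1.44 and no longer passed (adjusted p = 0.0546). This value comes from 1 probe set. A further 2 probe sets, annotated to both *Srsf3* and a second symbol and therefore not counted, gave mean log2 ratios of 2.55 and 0.99 in neurons, the opposite direction. The lowest of the 29 receptor genes was at -1.61.

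The SR-related coactivators *Srrm1* and *Srrm2* have serine and arginine repeats and help bridge splice sites, and *Srrm2* is a core protein of nuclear speckles. *Srrm2* had ratios of 24.5, 13.0 and 33.5 in neurons, against 0.811, 0.928 and 2.23 in uninjured axons (lowest, median, highest). Its difference was 4.46 ± 0.60 (adjusted p = 0.000259). *Srrm1* had 1.23, 1.27 and 1.42 in neurons, against 0.957, 1.02 and 1.25 in uninjured axons, so that the groups overlapped. Its difference of 0.38 ± 0.19 did not pass (adjusted p = 0.113).

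Proteins of the U1 and U2 snRNPs, which read the start of the intron and the branch point, were higher in neurons for 11 of 12 genes, with a median of 1.72, and the remaining gene was lower. *Sf3b6*, the subunit that contacts the branch point adenosine, had ratios of 22.8, 9.65 and 28.0 in neurons, against 0.651, 1 and 2.29 in uninjured axons (lowest, median, highest). The difference was 4.20 ± 0.68 (adjusted p = 0.000759), and neuron array 2 was the lowest of the 3. *Sf3b1*, the large scaffold that clamps the branch site, had 7.33, 6.17 and 9.83 in neurons, against 0.950, 1 and 1.24 in uninjured axons. All neuron arrays were above every uninjured array, with a difference of 2.93 ± 0.26 (adjusted p = 2.32e-05).

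*Snrpa*, a U1 protein that binds a stem-loop of the U1 RNA, rose less: its ratios were 2.20, 1.58 and 1.86 in neurons, against 0.868, 1 and 1.28 in uninjured axons (lowest, median, highest), a difference of 0.90 ± 0.24 (adjusted p = 0.00952). The other U1 and U2 genes that rose ran from 0.95 for *Sf3b4*, a branch-site RNA binder, to 3.88 for *Sf3b5*, a small subunit of the same complex. Among them, *Snrpa1* (1.54) did not pass without neuron array 1 (adjusted p = 0.059) or without neuron array 3 (adjusted p = 0.0573). It also did not pass with the spread of the 3 neuron arrays only (adjusted p = 0.0636). *Sf3a2*, which links the SF3A complex to the U2 particle, was the exception. It had 0.589, 0.769 and 0.448 in neurons, against 0.888, 1 and 1.02 in uninjured axons. All 3 neuron arrays lay below all 6 uninjured arrays, and the difference was -0.77 ± 0.26 (adjusted p = 0.0288). Without neuron array 1 it was also -0.77 and did not pass (adjusted p = 0.0559). The value comes from 1 probe set. It lies between the quartiles of the 29 receptor genes taken as largely silent, -1.19 and -0.71. Whether *Sf3a2* gave a signal above background was not tested.

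The U2AF proteins mark the 3′ splice site, *U2af2* by binding the pyrimidine tract and *U2af1* by reading the AG that follows it. *U2af1* had ratios of 20.1, 8.59 and 14.9 in neurons, against 0.627, 1 and 2.55 in uninjured axons (lowest, median, highest). The groups were far apart, with a difference of 3.78 ± 0.61 (adjusted p = 0.000739). *U2af2*, its partner in the same heterodimer, had 0.831, 0.796 and 0.834 in neurons, against 0.930, 0.992 and 1.21 in uninjured axons. All neuron arrays were just below the uninjured ones, and the difference of -0.29 ± 0.19 did not pass (adjusted p = 0.21). *U2af1l4*, a paralog of *U2af1*, had a difference of 0.86 that did not pass (adjusted p = 0.0712).

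Sm proteins form the ring on which U1, U2, U4 and U5 snRNPs are built, and here the members differed. Of 7 measured, 3 were higher in neurons (42.9%), none was lower and 4 did not pass, with a median of 0.55. The share that was higher lay near the 36.9% of all genes. *Snrpd3* had ratios of 21.2, 8.39 and 24.8 in neurons, against 0.711, 1 and 1.14 in uninjured axons (lowest, median, highest). Its difference was 4.04 ± 0.52 (adjusted p = 0.000217). *Snrpb*, which encodes SmB and its splice form, had 14, 10.9 and 11.6 in neurons, against 0.665, 1 and 1.06 in uninjured axons. Its difference was 3.60 ± 0.26 (adjusted p = 1.03e-05), and *Snrpf* rose by 1.94 (adjusted p = 0.00659).

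*Snrpd1* (0.55, adjusted p = 0.238), *Snrpd2* (0.36, adjusted p = 0.69) and *Snrpe* (-0.61, adjusted p = 0.277) sit in the same ring and did not pass. *Snrpn*, the SmN protein that takes the place of SmB in neurons, had ratios of 1.23, 1.17 and 0.647 in neurons, against 0.890, 1 and 1.09 in uninjured axons. The groups overlapped in this single probe set, with a difference of -0.03 ± 0.32 (adjusted p = 0.931). The other 2 probe sets that name *Snrpn* also name *Snurf*, the upstream reading frame of the same transcript, and gave mean log2 ratios of 3.48 and 5.96 in neurons. They were not counted because they carry 2 symbols, and *Snrpn* is therefore uncertain here.

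The LSm ring of U6, made of Lsm2 to Lsm8, was higher in neurons for 4 of 6 measured genes, with a median of 1.48. With the spread of the 3 neuron arrays only, *Lsm2*, *Lsm3* and *Lsm4* did not pass (adjusted p = 0.0901, 0.108 and 0.0999). The neuron arrays of *Lsm3* and *Lsm4* overlapped the uninjured ones, and both genes lost the call without neuron array 1 and without neuron array 3. *Lsm8*, the subunit that sets the nuclear ring apart from the cytoplasmic one, had ratios of 11.1, 4.43 and 14.7 in neurons, against a range of 0.919 to 1.42 in uninjured axons, and rose by 3.16 (adjusted p = 0.000886). *Lsm1* takes its place in the cytoplasmic ring, which helps remove the cap of mRNAs in decay. *Lsm1* had 1.10, 1.10 and 1.14 in neurons, against 0.808, 1 and 1.30 in uninjured axons (lowest, median, highest), a difference of 0.15 ± 0.24 within the spread of the uninjured arrays (adjusted p = 0.594).

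*Lsm14a*, a protein of cytoplasmic P-bodies that represses translation, had 1.24, 1.31 and 1.36 in neurons, against 0.580, 1.04 and 1.12 in uninjured axons (lowest, median, highest). The neuron arrays were slightly above, and the difference of 0.38 ± 0.31 did not pass (adjusted p = 0.302). *Lsm10* (1.88) and *Lsm11* (1.08), both subunits of the U7 snRNP that processes histone mRNA, rose, as did *Lsm12* (1.47) and *Lsm14b* (0.57). *Lsm14b* did not pass with arrays shifted to the same median (0.35, adjusted p = 0.115), without neuron array 3 (adjusted p = 0.0548) or with the spread of the 3 neuron arrays only (adjusted p = 0.106), and *Lsm10* did not pass with that spread (adjusted p = 0.0607). In all, 4 of these 6 LSm genes outside the U6 ring were higher, with a median of 0.83.

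Proteins named Prpf, most of them from the tri-snRNP or the Prp19 complex, were higher in neurons for 8 of 11 genes, with a median of 1.05. *Prpf19*, the ubiquitin ligase of the complex that bears its name, had ratios of 17.0, 5.69 and 20.3 in neurons, against 0.898, 1 and 1.40 in uninjured axons (lowest, median, highest). Its difference was 3.65 ± 0.58 (adjusted p = 0.000697). *Prpf8*, the U5 protein that holds the catalytic RNA, had 4.46, 3.94 and 5.05 in neurons, against 0.776, 1 and 1.20 in uninjured axons. The 3 neuron arrays were alike, with a difference of 2.16 ± 0.26 (adjusted p = 0.000141). *Prpf18*, *Prpf38b* and *Prpf40b* had differences of 0.28, 0.54 and 0.14 and did not pass, and *Prpf4* (0.58, adjusted p = 0.044) passed by little. With arrays shifted to the same median, *Prpf4*, *Prpf3* and *Prpf39* did not pass (adjusted p = 0.25, 0.0669 and 0.0718). Of the 3 probe sets of *Prpf3* only 1 passed, at 1.95, beside 0.11 and -0.02.

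The DEAD-box RNA helicases showed the largest differences of all 61 genes. *Ddx39b* loads export factors onto spliced mRNA and acts in early spliceosome assembly. It had ratios of 45.4, 45.6 and 55.6 in neurons, against 0.947, 1 and 2.66 in uninjured axons (lowest, median, highest). The neuron arrays were nearly equal, and the difference was 5.61 ± 0.49 (adjusted p = 2.44e-05), a ratio of 48.7. *Ddx5*, a helicase and transcription coactivator, had 36.8, 33.3 and 44.1 in neurons, against 0.438, 0.999 and 3.82 in uninjured axons. Its difference was 5.24 ± 0.85 (adjusted p = 0.000792).

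Neuron array 2 gave the lowest of the 3 neuron values for 45 of the 61 splicing genes and for 7169 of all 14217 genes. The median ratio of the 61 genes was 1.57, 1.17 and 1.69 (log2) in neuron arrays 1, 2 and 3, and the hybridisation controls, which are added to every array in equal amount, had median ratios of 0.276, 0.910 and 0.157 there. The actin 3′ control followed the members, at 71.2, 38.4 and 80.1. The median SD over the 3 neuron arrays was 0.293 for the splicing genes and 0.220 over all genes, both on the log2 scale. Whether the array differences shaped the members' spread was not tested.

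Cut axons that had regrown for 2 days did not differ from uninjured axons in any splicing gene by the test. None of the 61 genes was higher and none was lower by limma with Benjamini-Hochberg adjustment, and 6 of 61 had an unadjusted p under 0.05, against 12.4% of all genes. Over all genes 0.0352% were higher and 0.689% were lower, so that calls were few altogether. The same kind of fit was run on simulated data, with 200 genes changed in 3 neuron arrays. It recovered 2.5% of differences of 1 (log2) and 87% of differences of 2. The lack of calls therefore does not show that the levels were equal. The median difference of the 61 genes was -0.12 (log2), against 0.02 over all genes. The 3 regenerating arrays lay below all 6 uninjured arrays for 8 genes, where 12.5% of all genes did so, and above all 6 for 3 genes, where 10.3% did so.

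**Figure D2:**
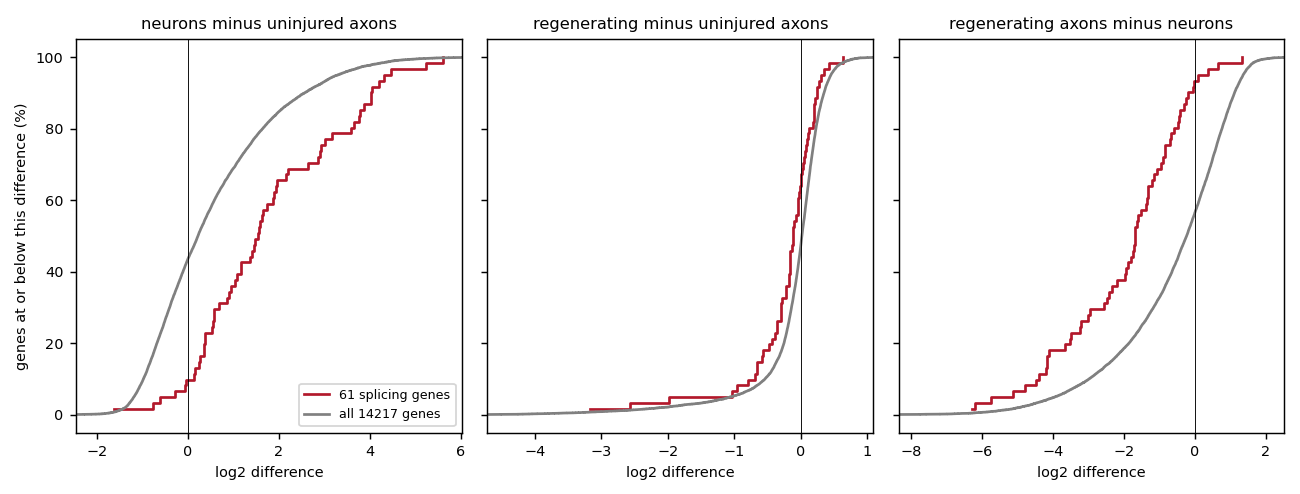
Cumulative share of genes (y axis, %) at or below each log2 difference (x axis) for the 61 splicing genes (red) and all 14217 genes (grey), in 3 panels: neurons minus uninjured axons, regenerating minus uninjured axons, and regenerating axons minus neurons. The red curve lies to the right of the grey one in the first panel (medians 1.54 and 0.22), near it in the second (-0.12 and 0.02) and to its left in the third (-1.69 and -0.23).

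The largest differences were falls in Sm proteins and in *U2af1*, none of which passed. *Snrpd2* had ratios of 0.305, 0.0554 and 0.081 in regenerating axons, against a lowest of 0.324, a median of 1 and a highest of 1.25 in uninjured axons. All 3 regenerating arrays were below all uninjured arrays, regenerating array 1 only just, and the difference of -3.17 ± 0.89 did not pass (n = 3 regenerating arrays, adjusted p = 0.135). *Snrpe* had 0.378, 0.0966 and 0.130 in regenerating axons, against 0.794, 1 and 1.07 in uninjured axons (lowest, median, highest). Its difference was -2.57 ± 0.57 (adjusted p = 0.0801). Without regenerating array 1, which was the highest of the 3 for both, *Snrpd2* (-3.90, adjusted p = 0.0167) and *Snrpe* (-3.16, adjusted p = 0.000188) passed, with 2 arrays left in the group.

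*U2af1* had 0.280, 0.196 and 0.298 in regenerating axons, against 0.627, 1 and 2.55 in uninjured axons. The regenerating arrays were alike and lay below every uninjured array, but uninjured array 3 alone reached 2.55, and the difference of -1.98 ± 0.53 did not pass (adjusted p = 0.127). Without that uninjured array it passed (adjusted p = 0.0329). In the same arrays the GAPDH 3′ control had ratios of 0.355, 0.159 and 0.142, lowest in the same 2 arrays as *Snrpd2* and *Snrpe*, and the GAPDH 5′ control had 0.496, 0.350 and 0.250. The actin 3′ control had 0.809 and 0.693 in arrays 1 and 2 and was lowest in array 3, and the actin 5′ control, at 0.796, 1.07 and 0.824, did not follow that order. The hybridisation controls had median ratios of 1.14, 1.44 and 1.57, highest in those same 2 arrays. The neuronal markers had medians of -0.30, -0.51 and -0.99 in regenerating arrays 1, 2 and 3. Their part in the low values was not tested.

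The Sm proteins as a group had a median of -0.65 in regenerating axons, the lowest of the role groups with more than 2 genes, with *Snrpf* at -1.03 (adjusted p = 0.237), *Snrpd1* at -0.65 (adjusted p = 0.55) and *Snrpb* at 0.35 (adjusted p = 0.652). *Snrpn* was at 0.06 ± 0.18 (adjusted p = 0.945). Medians were -0.14 for SR proteins, -0.12 for U1 and U2 proteins, 0.10 for Prpf proteins, -0.10 for the U6 LSm ring and 0.05 for the other LSm proteins. *Ddx5* and *Ddx39b*, the genes farthest apart between neurons and axons, were at -0.96 ± 0.86 and -0.69 ± 0.49 and did not pass (adjusted p = 0.769 and 0.666).

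Rises were small. *Lsm5*, a subunit of both LSm rings, had ratios of 1.66, 1.36 and 1.69 in regenerating axons, against 0.269, 1 and 1.25 in uninjured axons (lowest, median, highest). The regenerating arrays were all above, yet the low uninjured array widened the error, and the difference of 0.64 ± 0.71 did not pass (adjusted p = 0.825). *Prpf38a*, a factor needed to activate the assembled spliceosome, had a difference of 0.43 ± 0.58 with overlapping groups. *Srsf3* and *Sf3a2*, which were low in neurons, had -0.29 ± 0.29 and -0.12 ± 0.15 in regenerating axons, and *Srsf2* had 0.00 ± 0.43.

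The comparison of regenerating axons with uninjured axons depends on how the uninjured level is treated. With that level taken as exact, 1 splicing gene was higher (*Prpf4*) and 10 were lower: *Lsm3*, *Lsm7*, *Sf3b1*, *Snrpd1*, *Snrpd2*, *Snrpe*, *Snrpf*, *Srsf4*, *Srsf5* and *U2af1*. Over all genes 11.2% were higher and 14% were lower by the same rule, so the share that was lower lay near the background and the share that was higher lay under it.

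Regenerating axons differed from neurons in most splicing genes. Here 52 of the 61 were lower in regenerating axons, 3 were higher and 6 did not pass, by a limma fit with 3 arrays a group. Over all genes 44.2% were lower and 31.3% were higher. The median difference was -1.69 (log2), against -0.23 over all genes. All 3 regenerating arrays lay below all 3 neuron arrays for 52 genes, where 45.8% of all genes did so, and above them for 3, where 34% did so. No uninjured array entered this fit. Whether the same divisor served both groups is not given, and both this comparison and the one between neurons and uninjured axons use the neuron arrays.

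The largest differences were again the helicases, *Ddx39b* at -6.30 ± 0.15 (adjusted p = 2.5e-07) and *Ddx5* at -6.20 ± 0.20 (adjusted p = 5.76e-07). *Ddx39b* had ratios of 0.682, 0.573 and 0.608 in regenerating axons, beside the 45.4, 45.6 and 55.6 in neurons, which is 78.6 times as much in neurons. *U2af1* followed at -5.75 ± 0.32 (adjusted p = 3.47e-06), then *Srrm2* at -5.12 ± 0.34 (adjusted p = 8.32e-06), *Srsf11* at -4.80, *Srsf5* at -4.49, *Snrpd3* at -4.39 and *Tra2b* at -4.21. The SEs of the helicases and of *Tra2b* (0.26) were smaller here than against uninjured axons. That other fit gives the reference the error of 1 array and pools the spread of the uninjured arrays, array 4 among them. Without array 4 its SEs were 0.24 for *Ddx39b*, 0.39 for *Ddx5* and 0.35 for *Tra2b*, still larger than here.

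By role, the SR proteins were lower in regenerating axons for 10 of 12 genes, U1 and U2 proteins for 11 of 12, Sm proteins for 6 of 7, both LSm groups for 6 of 6 each, Prpf proteins for 8 of 11 and both helicases. *Prpf19* (-3.67), *Sf3b1* (-3.49), *Snrpb* (-3.25), *Srsf1* (-4.18), *Srsf2* (-3.01), *Prpf8* (-1.94) and *Snrpa* (-0.96) were among them. *Snrpd1* (-1.20 ± 0.15, adjusted p = 0.000234), *Lsm14a* (-0.67 ± 0.19, adjusted p = 0.0118) and *Lsm1* (-0.44 ± 0.12, adjusted p = 0.0124) were lower in this comparison, while their differences between neurons and uninjured axons had not passed. With every array shifted to the same median, *Lsm1* (-0.23) and *Lsm14a* (-0.46) no longer passed (adjusted p = 0.154 and 0.0536). Nor did *Lsm14b* (-0.26, adjusted p = 0.136), *Lsm7* (-0.62, adjusted p = 0.0708) and *Srsf7* (-0.20, adjusted p = 0.212). *Lsm7* also lost its call without regenerating array 1, 2 or 3 and without neuron array 1 or 3. *Lsm14b* lost it without regenerating array 1 or 2 and without neuron array 1 or 3.

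The 3 genes higher in regenerating axons were *Srsf3*, *Sf3a2* and *U2af2*. *Srsf3* had ratios of 0.748, 1.04 and 0.697 in regenerating axons, against 0.246, 0.635 and 0.215 in neurons, a difference of 1.34 ± 0.40 (adjusted p = 0.0158). *Sf3a2* had 0.967, 0.924 and 0.871 in regenerating axons, against 0.589, 0.769 and 0.448 in neurons, a difference of 0.65 ± 0.21 (adjusted p = 0.021). *U2af2* had 1.12, 1.04 and 1.01 in regenerating axons, against 0.831, 0.796 and 0.834 in neurons, a difference of 0.37 ± 0.13 (adjusted p = 0.0288). Its probe sets passed in both directions here, at 1.75 (adjusted p = 1.94e-05) and -0.53 (adjusted p = 0.0161), with 1 more at -0.12. With the probe set of highest mean ratio alone *U2af2* was lower, at -0.53 (adjusted p = 0.0162), and with the replicate number as a block it did not pass (adjusted p = 0.0646). The 2 uncounted probe sets that share *Srsf3* with a second symbol again ran the other way, with mean log2 ratios of -0.49 and -0.59 in regenerating axons, against 2.55 and 0.99 in neurons. In the values above, none of these groups overlapped. *Sf3a2* and *U2af2* each lost the call without regenerating array 1, without regenerating array 2, without neuron array 1 and without neuron array 3, and *Srsf3* lost it without regenerating array 2 (adjusted p = 0.0605) and without neuron array 1 (adjusted p = 0.0593). Of the 29 receptor genes 26 were higher in regenerating axons, with a median of 1.17. *Snrpn* (0.09) and *Srrm1* (-0.18) did not pass.

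Genes with several probe sets often gave unlike values. Of 24 such genes, 8 had probe sets of opposite sign between neurons and uninjured axons, and 6 had a gap of over 2 (log2). *Sf3b1* had 5.09, 3.08 and 0.62 on its 3 probe sets, all positive. *Prpf4b*, a kinase that phosphorylates tri-snRNP proteins, ran from 0.03 to 3.02 over 4 probe sets, and *Tra2a* had 0.24 and 3.24. *Srsf10*, an SR protein that represses splicing when dephosphorylated, ran from -1.54 to 0.79 over 5 probe sets, and its mean of -0.06 did not pass.

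Probe sets that passed the test in both directions occurred for 2 genes, *U2af2* with 0.61 and -1.41 beside 1 more at -0.05, and *Prpf18*, which acts in the second step of splicing, with 1.16 and -0.61. Opposite signs were also found in *U2af1l4* (2.04 and -0.31), *Lsm7* (0.75 and -0.26), *Srrm1* (-0.54 to 0.99), *Prpf3* (-0.02 to 1.95) and *Prpf38b* (-0.32 to 1.62). For these genes the mean over probe sets stands for transcripts that the probe sets did not read alike. The probe sets of *Ddx5* (5.21 and 5.27), *Srsf2* (2.95 and 3.08) and *Tra2b* (3.84 and 4.22) were close to each other. Between regenerating and uninjured axons 14 of the 24 genes had opposite signs but none a gap of over 2, and between regenerating axons and neurons 9 had opposite signs and 9 a gap of over 2.

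**Figure D3:**
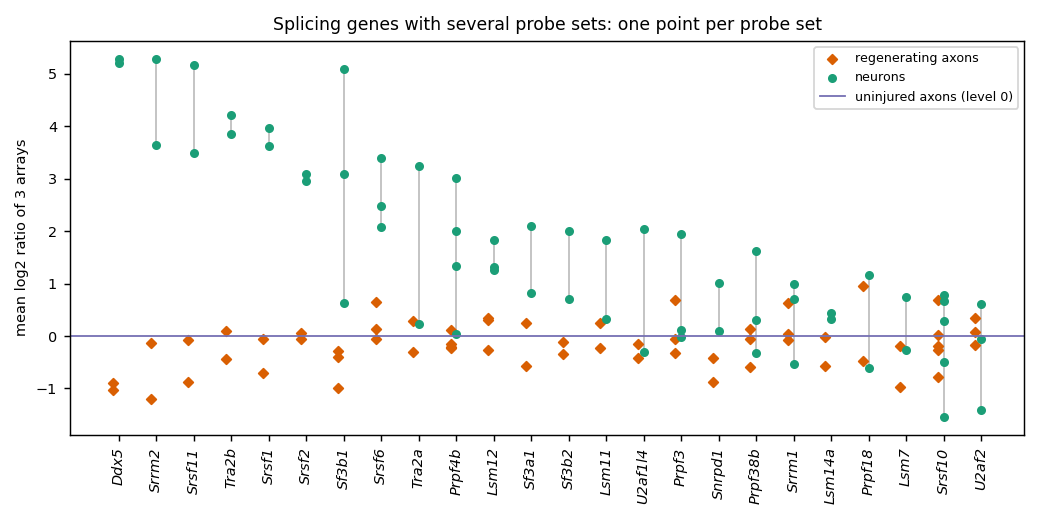
Mean log2 ratio (y axis) of every probe set of the 24 splicing genes with several probe sets (x axis), diamonds for regenerating axons and circles for neurons, with 3 arrays behind each point and a line at the uninjured level of 0. The neuron circles of *Sf3b1* spread from 0.62 to 5.09, those of *U2af2* and *Prpf18* fall on both sides of 0, and those of *Ddx5* coincide.

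Uninjured axons also differed among themselves in these genes. The median SD within a set of 3 arrays was 0.189 and 0.207 for the splicing genes, against 0.149 and 0.179 over all genes (log2). A ratio of at least 2 was reached in some uninjured array by 9 of the 61 genes (14.8%), against 3.12% of all genes. For 8 of the 9 it was reached in array 4: *Tra2b* (7.39), *Ddx5* (3.82), *Srsf11* (3.46), *Srsf1* (2.70), *Prpf38a* (2.70), *Ddx39b* (2.66), *Sf3b6* (2.29) and *Srrm2* (2.23). Array 4 also held the highest ratio for 280 of the 444 such genes over the whole table. All 8 are among the genes that were higher in neurons, as were 70.5% of the 61 splicing genes and 36.9% of all genes. The share among the 280 genes was not counted.

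**Figure D4:**
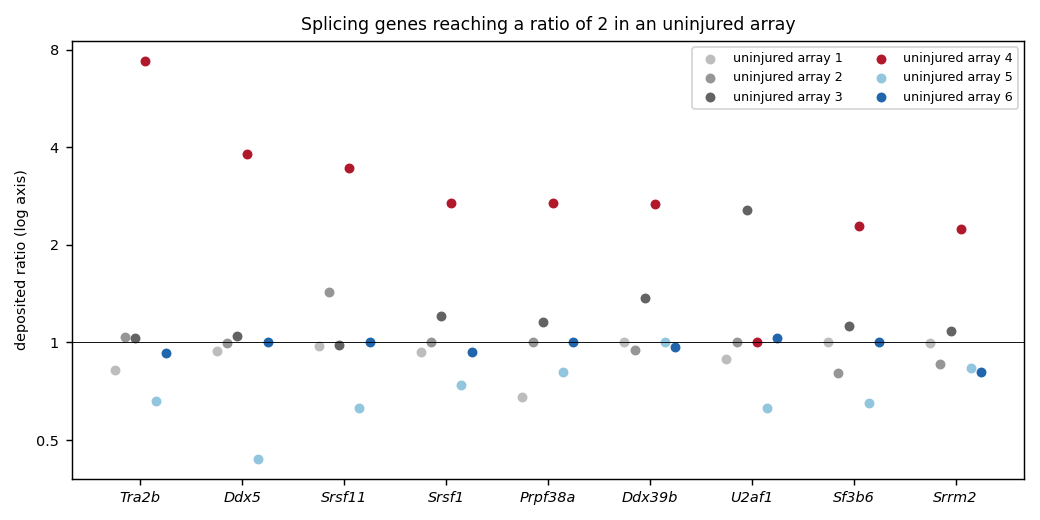
Deposited ratio (y axis, log scale) in each of the 6 measured uninjured arrays for the 9 splicing genes that reach 2 in one of them (x axis). Array 4 is the highest for 8 of the 9, up to 7.39 for *Tra2b*, and array 3 for *U2af1* at 2.55.

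In array 4 the hnRNP proteins, the other large family of nuclear RNA binders, had a median of 0.65 (log2) and 11 markers of dividing cells a median of 0.75. Markers of neurons (-0.01), astrocytes (0.00) and the oligodendrocyte lineage (0.00) had medians at the level of the set, and the median of all genes was 0.00. Single markers in these lists stood apart in array 4. Its ratios were 14.7 for *Fabp7* (astrocytes), 12.9 for *Pdgfra* and 6.23 for *Olig1* (oligodendrocyte lineage) and 2.40 for *Snap25* (neurons). Other neuronal markers were low there, such as *Nefm* (0.608) and *Eno2* (0.637). What sets array 4 apart was not tested. With array 4 left out, 43 splicing genes were higher and 2 lower in neurons, the same counts as with it. *Prpf4* lost its call (adjusted p = 0.0539) and *U2af1l4* gained one (adjusted p = 0.0373). The loss was not particular to array 4, since *Prpf4* also lost its call without uninjured array 1, 2, 3 or 5 (adjusted p = 0.0582, 0.0635, 0.0619 and 0.0534). The SE of *Ddx5* was then 0.39, against 0.85 with it, that of *Srsf1* 0.21 against 0.56, and that of *Ddx39b* 0.24 against 0.49.

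Genes that work beside the spliceosome were read in the same way. The shares over all genes were 36.9% higher and 23% lower in neurons than in uninjured axons. Of 43 other spliceosome proteins 33 were higher in neurons than in uninjured axons and none was lower (median 1.40), with the helicase *Dhx15*, which takes the spent spliceosome apart, at 4.78 ± 0.78 (adjusted p = 0.000808). Of 20 hnRNP proteins all 20 were higher (median 3.53), led by *Hnrnph1*, which binds runs of G in pre-mRNA, at 5.37 ± 1.03 (adjusted p = 0.00193). Of 17 exon junction and export proteins 11 were higher (median 1.40), with the helicase *Eif4a3*, the anchor of the exon junction complex, at 3.43.

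Of 8 kinases of SR proteins 7 were higher and 1 was lower (median 2.04): *Clk1*, which phosphorylates SR proteins in the nucleus, rose by 3.78, while *Srpk3*, known from muscle, had a difference of -0.97 (adjusted p = 0.0159). Of 25 genes listed as tissue splicing regulators 16 were higher and 2 lower (median 1.21), with the brain protein *Celf5* at 5.14 and the epithelial regulator *Esrp1* at -0.89 (adjusted p = 0.00566). Subunits of RNA polymerase II, the enzyme that makes pre-mRNA, were higher for 10 of 12 (median 1.78), with *Polr2b*, its second largest subunit, at 3.79.

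Between regenerating and uninjured axons no gene of these 6 lists passed. The polymerase subunits had the lowest median, -0.46, with 5 of 12 at an unadjusted p under 0.05 (12.4% of all genes), and the hnRNP proteins had -0.19. Between regenerating axons and neurons, 20 of 20 hnRNP proteins, 12 of 12 polymerase subunits, 34 of 43 other spliceosome proteins, 15 of 17 exon junction and export proteins, 17 of 25 tissue regulators and 6 of 8 kinases were lower in regenerating axons. The shares over all genes were 44.2% lower and 31.3% higher in that comparison. The largest differences were *Hnrnph1* at -7.11 ± 0.15 (adjusted p = 2.32e-07), *Celf5* at -6.01, *Dhx15* at -5.06, *Polr2k* at -4.74, *Clk1* at -4.58 and the export receptor *Nxf1* at -3.91. Higher in regenerating axons were *Isy1*, a factor of the catalytic spliceosome (0.40 ± 0.14, adjusted p = 0.0347), *Srpk3* (0.997) and *Esrp1* (1.15) as the largest of their lists. The splicing genes' median between neurons and uninjured axons, 1.54, lay within the range of these 6 lists, 1.21 to 3.53, and the lists were not tested against each other.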

How the data were processed

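RNA of 13 arrays (3 regenerating axons, 3 neurons, 7 uninjured axons) was read as probe set values. RMA is named in the submitters' processing notes, with no version. The deposited values are linear ratios, made by the authors by division: the row median is 1 (tolerance 0.0001) over uninjured arrays 1 to 3 and over 4 to 6 in 100% of probe sets, and array 7 is 1 in 100%. The lowest ratio, 0.01, occurs 21 times and never in a splicing gene.

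Symbols came from the platform annotation, and all 61 symbols match the GRCr8 gene table. Each gene was given the mean, on the log2 scale, of its single-symbol probe sets. With limma 3.58.1 in R 4.3.3, neurons and regenerating axons were each tested against 0, with the spread pooled with the uninjured arrays about their set mean and the reference given the error of 1 array. Regenerating axons and neurons were compared in a 2-group fit. P-values were two-sided and adjusted over 14217 genes. The fits were tested on simulated data.

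The genes, lists and tests were chosen with earlier results of these data known. Genes named are the 8 largest rises and 8 largest falls past the threshold in each comparison (3 each where none passed), those opposite to most, 20 fixed genes, the extremes of each related list, and genes whose probe sets differed in sign or by over 2; a few others are named as examples of their role group. Alternatives were the probe set with the highest mean log2 ratio over the arrays compared, each probe set by itself and arrays shifted to one median. Further ones were the reference without error, the spread of 3 arrays only, the replicate number as a block, and each array left out. Probe sets with several symbols were left out, as they may read either gene.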

Additional observations from a re-analysis of the deposited data

Results flagged for a closer look

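Within the 6 measured uninjured arrays, 1 array lay far from the other 5 (by Dixon's criterion for 6 samples) for 11 of the 28 named splicing genes. The criterion's rate of about 1 in 20 groups holds for independent values, which these ratios are not. The count can therefore not be set against that rate, and the share over all genes was not counted. In array 4 the far value was the highest: a ratio of 7.39 for *Tra2b*, 2.66 for *Ddx39b*, 2.23 for *Srrm2* and 1.24 for *Sf3b1*. In array 1 it was the lowest: 0.324 for *Snrpd2*, 0.580 for *Lsm14a*, 0.690 for *Srsf3* and 0.794 for *Snrpe*. The others were *U2af1* in array 3 (2.55), *Snrpb* in array 5 (0.665) and *Srsf5* in array 6 (0.690). Division by the median of 3 puts 1 array of each set at exactly 1 for every probe set, and what this does to the criterion was not tested.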

How the results depend on the processing

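Of the splicing genes called, 34 kept their call between neurons and uninjured axons under every alternative with 1 value a gene, and 45 between regenerating axons and neurons. With each probe set by itself, all probe sets kept it for 30 of the 34 and 40 of the 45. The probe set with the highest mean was the one with the highest mean log2 ratio over the arrays compared. That choice favours probe sets raised in those arrays and does not pick the strongest signal, so it is not a neutral check. For neurons against uninjured axons, the probe set with the highest mean gave a median of 1.88; the count of lower genes was 4 with each probe set by itself (of 97 probe sets), 4 with the reference taken as exact and 0 with the spread of the 3 arrays only. Leaving out each array in turn gave 39 to 45 higher, 0 to 2 lower and medians of 1.42 to 1.64. The 0 lower came without neuron array 1. For regenerating against uninjured axons, the probe set with the highest mean gave a median of -0.042, and the reference taken as exact gave 1 higher and 10 lower; leaving out each array gave 0 higher, 0 to 2 lower and medians of -0.126 to -0.0825. For regenerating axons against neurons, medians were -1.94 with the highest-mean probe set, -1.60 with each probe set (and 6 higher) and -1.48 with arrays shifted to one median; leaving out each array gave 0 to 3 higher, 48 to 52 lower and medians of -1.82 to -1.61. The 0 higher came without regenerating array 2 and without neuron array 1. With the highest-mean probe set, *U2af2* turned to 0.61 (adjusted p = 0.0227) in neurons against uninjured axons and to -0.53 (adjusted p = 0.0162) in regenerating axons against neurons, since that choice takes 1 of its 3 probe sets. With the replicate block, regenerating axons against neurons gave 2 higher, 51 lower and a median of -1.69, and *U2af2* (adjusted p = 0.0646) and *Lsm7* (adjusted p = 0.0608) lost their calls. Deviations from the group mean correlated across genes at 0.172, 0.179 and -0.115 for same-numbered arrays. For arrays with unlike numbers they ran from -0.248 to 0.211. The labels do not give the cultures of these arrays, so whether same-numbered arrays are paired is not known. A ratio has no signal over background, so no limit by depth can be given.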
